A study of Saccharomyces cerevisiae with 4 samples.

Results

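Messenger RNA levels of 2 budding yeast (*Saccharomyces cerevisiae*) strains were compared, one with an intact Whi3 protein and one whose Whi3 lacked the RNA recognition motif (RRM), the domain that contacts RNA. The measurements are the Cy5 channels of 4 arrays with 2 dyes each, which carried labelled total RNA, and they make up 4 of the 8 labelled RNA samples in the series. The other channel of each array, which carried immunoprecipitated RNA, was not used. Of 5738 gene probes, 4295 had a value on all 4 arrays and were compared. Probes for 3′ untranslated regions and spots marked with a negative flag were left out. The Whi3-dRRM-TAP group was whi3-dRRM-TAP-KanMX4 in W303a, with 2 arrays. The Whi3-TAP group was WHI3-TAP-KanMX4 in W303a, also with 2 arrays. Both strains were *MATa* haploids that carried a TAP tag and a KanMX4 marker at the *WHI3* locus, so no array held RNA of an untagged strain, and the mutant still had the rest of the Whi3 protein. Cells were taken from log phase cultures in rich medium, and the RNA came from the cleared extracts that were also used for immunoprecipitation. The sources used do not say how many independent isolates of each strain were grown. Replicates 1 and 2 are labelled as biological replicates, and arrays with the same number were treated as a pair.

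Whi3 is known for holding back Cln3, the cyclin that starts the yeast cell cycle, and it binds *CLN3* mRNA through its RRM. RNA-binding proteins of this kind can alter the translation, the place in the cell or the lifetime of the mRNAs they hold. A change in lifetime would appear in total RNA as a change in level, which is the question that this comparison addresses. The arrays held spotted double-stranded PCR products, so they do not tell the strands of a gene apart, and near-identical genes share signal. Signals of different probes are not levels that can be set against each other. Every value below is a log2 total RNA signal of one gene after scaling between arrays, or a difference of such signals, Whi3-dRRM-TAP minus Whi3-TAP, given as the mean ± SD of the 2 pairs.

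Whi3-dRRM-TAP array 1 stood apart from the others before any comparison. Only 48.5% of its gene spots were free of a negative flag, against 78% on Whi3-dRRM-TAP array 2 and 82% and 87.4% on the Whi3-TAP arrays. All 288 spots without DNA on each array also had a negative flag, so the flag does not mark bad spots alone. A gene was called above background on an array where its signal exceeded the local background by more than 2 background SDs. In Whi3-dRRM-TAP that held for 1129 genes (26.3%) on array 1 and 2771 (64.5%) on array 2, against 2848 (66.3%) and 2778 (64.7%) in Whi3-TAP. The median net intensity of gene spots was 751 and 1675 in Whi3-dRRM-TAP, and 828 and 1312 in Whi3-TAP. Spots without DNA gave 62 and 95 in Whi3-dRRM-TAP, and 48 and 93.5 in Whi3-TAP. A further 975 genes lacked a value on Whi3-dRRM-TAP array 1 alone, and these were dim elsewhere, with a median signal of 1.14 background SDs on the other 3 arrays. Between 8 and 29 genes per array were saturated. Across genes, the scaled signals of the arrays correlated with r from 0.887 to 0.969, and the lowest 3 of the 6 values were those of Whi3-dRRM-TAP array 1 with each other array. Genes are not independent replicates, so these correlations are descriptions.

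The strain labels were set against marker genes. Of 7 **a**-cell genes, 2 and 5 were above background in Whi3-dRRM-TAP and 4 and 5 in Whi3-TAP. The pheromone gene MFA1 and ASG7 were below 2 background SDs on all 4 arrays, and MFA2, a second pheromone gene, was above on array 2 of each strain. STE2, the alpha-factor receptor of **a** cells, was above background on every array, at 2.89 and 6.78 background SDs in Whi3-dRRM-TAP and 11.1 and 9.58 in Whi3-TAP. BAR1, the **a**-cell protease that degrades alpha-factor, was at 50.6 and 30.2 in Whi3-dRRM-TAP and 140 and 25.1 in Whi3-TAP, although its probe was saturated on at least one array. The 4 alpha-cell genes (MF(ALPHA)1, MF(ALPHA)2, STE3 and SAG1) were below 2 background SDs on all 4 arrays, as were all 11 meiosis and sporulation genes wherever they had a value. Of 10 stationary phase genes, 0 and 2 were above background in Whi3-dRRM-TAP and 3 and 3 in Whi3-TAP. Only 6 of them had a value on all 4 arrays. The summed signal of these 6 was 344 and 433 ppm of all net signal in Whi3-dRRM-TAP, against 376 and 435 in Whi3-TAP, so for these the groups overlapped.

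WHI3 itself was measured first. Its scaled signal was 10.15 and 9.81 in Whi3-dRRM-TAP, against 10.51 and 10.44 in Whi3-TAP. Both Whi3-dRRM-TAP arrays were lower than both Whi3-TAP arrays, with a difference of -0.50 ± 0.19 (limma, adjusted p = 0.445). On Whi3-dRRM-TAP array 1 the gene was not above background. The files do not say which stretch of *WHI3* was spotted, so a shorter mRNA and a scarcer one cannot be told apart, and the value is only a partial check of the labels. WHI4, the close relative of WHI3, had 9.63 and 9.78 in Whi3-dRRM-TAP and 9.80 and 9.82 in Whi3-TAP, a difference of -0.10 ± 0.09.

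CLN3 was close to even between the strains. It had 11.06 and 11.47 in Whi3-dRRM-TAP and 10.88 and 11.29 in Whi3-TAP, and it was above background on every array. Within the pairs its signal was higher in Whi3-dRRM-TAP by 0.17 and 0.18, a mean fold of 1.13 (limma, adjusted p = 0.622), while the groups as a whole overlapped. Without Whi3-dRRM-TAP array 2 or without Whi3-TAP array 1 the CLN3 difference was -0.03 and -0.02. Values with an array left out, here and below, had no pairing, so they also hold the gap between replicates 1 and 2. CLN1 and CLN2 encode the cyclins that act after Cln3 at the start of the cycle. Their differences were -0.21 ± 0.07 for CLN1 and 0.08 ± 0.16 for CLN2, and neither passed the test (adjusted p = 0.584 and 0.845). ACT1, which encodes actin, was at -0.31 ± 0.11. The wall stress sensors MID2 and MTL1 were at 0.06 ± 0.20 and -0.06 ± 0.47, and MTL1 was above background on 0 arrays.

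Across all genes, limma's test with the pair as a block called 0 genes higher and 0 lower in Whi3-dRRM-TAP at an adjusted p under 0.05. The share called was 0% of 4295 genes in each direction, and the smallest adjusted p was 0.372. At an unadjusted p under 0.05, 232 genes (5.4%) were higher and 230 (5.36%) lower. With no block 76 were higher and 63 lower at that level, again with 0 at an adjusted p under 0.05. The block leaves a single residual degree of freedom per gene, and p-values measure the spread between these samples only. For 1300 genes (30.3%) the signal was higher in Whi3-dRRM-TAP in both pairs, and for 1351 (31.5%) it was lower in both. Most genes differed little: the mean difference was within 1.2-fold for 63.7% of genes and within 1.5-fold for 92.4%. It was beyond 2-fold for 30 genes higher and 26 lower, of which 11 and 7 were beyond 2-fold in each pair. The differences of pair 1 and pair 2 correlated across genes with r = 0.29, and they had an SD of 0.50 in pair 1, which holds Whi3-dRRM-TAP array 1, and 0.34 in pair 2.

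**Figure D1:**
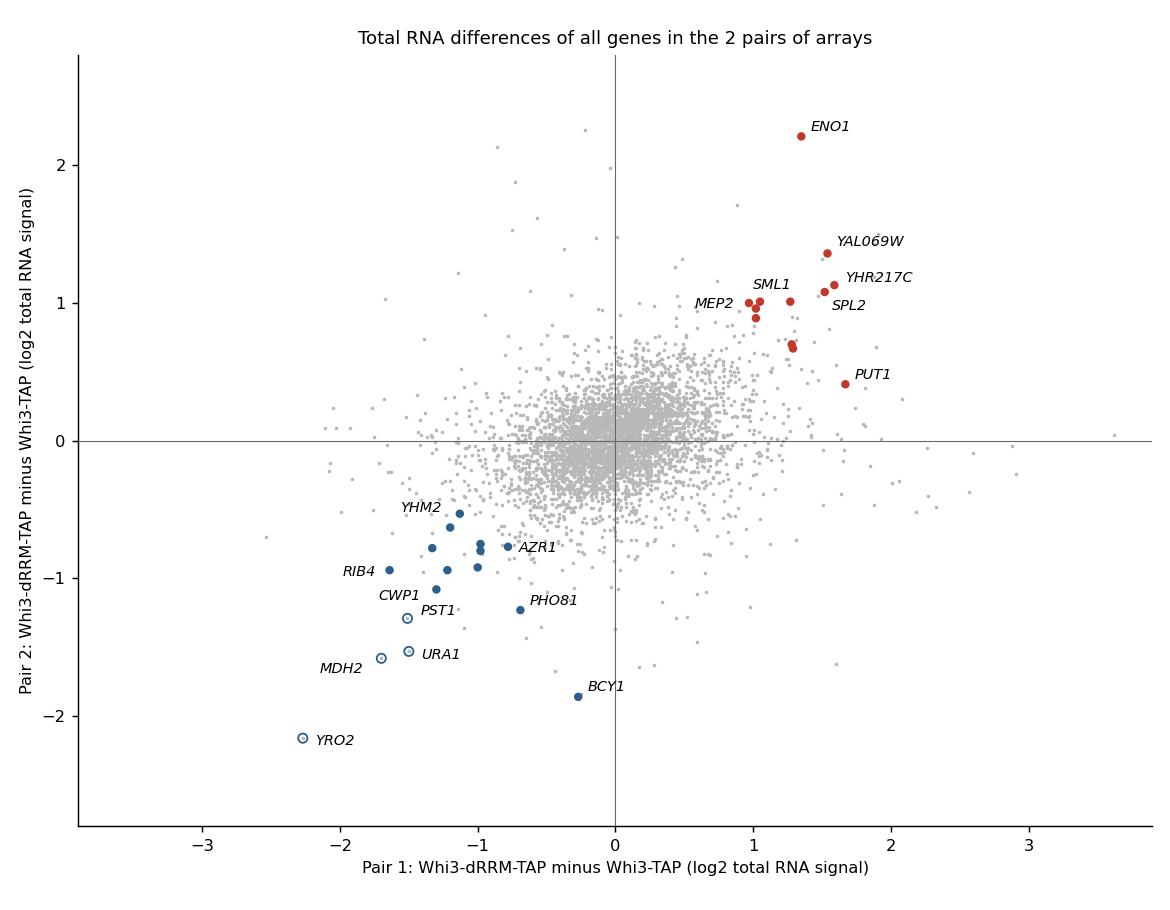
Difference in total RNA signal, Whi3-dRRM-TAP minus Whi3-TAP in log2 units, of 4295 genes (grey points) in pair 1 (horizontal axis) and pair 2 (vertical axis). Filled points are the 12 highest (red) and 12 lowest (blue) genes that were above background on all arrays, open blue circles are 4 genes not above background on at least one Whi3-dRRM-TAP array, and the cloud is wider along pair 1 (SD 0.50) than along pair 2 (SD 0.34).

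The likeness of the pairs depended on how bright a gene was. The genes were put into 5 classes of 859 by mean scaled signal. In the dimmest class 0.116% and 2.56% of genes were above background in Whi3-dRRM-TAP, and 0.815% and 2.21% in Whi3-TAP. In the brightest class these shares were 97.8% and 99.9% in Whi3-dRRM-TAP, and 100% on both Whi3-TAP arrays. The middle class separated the arrays most, since 1.28% of its genes were above background on Whi3-dRRM-TAP array 1, 91.4% on Whi3-dRRM-TAP array 2, and 93.7% and 90.7% on the Whi3-TAP arrays. From the dimmest class to the brightest, the correlation of the pairs across genes was 0.148, 0.196, 0.3, 0.438 and 0.509. The share of genes with the same sign in both pairs was 55.4% in the dimmest class and 67.3% in the brightest, while the SD of the mean difference was 0.40 and 0.33. Dim genes therefore carried differences as wide as those of bright genes that repeated less between the pairs. Of the genes at an unadjusted p under 0.05, 84 higher and 45 lower ones were in the dimmest class, and 44 higher and 64 lower ones in the brightest.

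**Figure D2:**
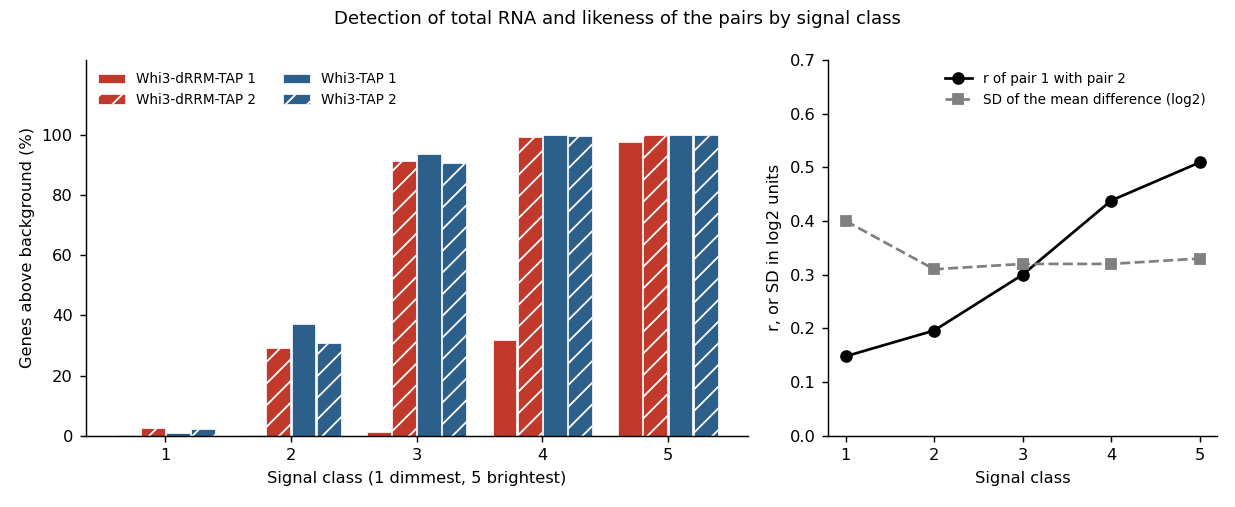
Left, percent of the 859 genes of each signal class above background on each array, with Whi3-dRRM-TAP in red and Whi3-TAP in blue and array 2 hatched. Right, correlation across genes of the pair 1 and pair 2 differences (circles) and SD of the mean difference in log2 units (squares); the correlation was 0.148 in class 1 and 0.509 in class 5.

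Among genes above background on every array, with at least 2 usable spots on each and the same sign in both pairs, none passed the adjusted test, so the highest and lowest are given with their values. SPL2, a small protein that damps low-affinity phosphate uptake when phosphate is short, had 13.08 and 12.46 in Whi3-dRRM-TAP and 11.57 and 11.38 in Whi3-TAP. The groups did not overlap, and the difference was 1.30 ± 0.31 (limma, adjusted p = 0.424), a fold of 2.46. SML1, the protein inhibitor of ribonucleotide reductase, had 14.35 and 13.74 in Whi3-dRRM-TAP and 13.31 and 12.73 in Whi3-TAP, a difference of 1.03 ± 0.03 (limma, adjusted p = 0.424). The difference of SML1 was nearly the same in both pairs.

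CYC1, the main form of cytochrome c, had 12.78 and 12.49 in Whi3-dRRM-TAP and 11.76 and 11.53 in Whi3-TAP, a difference of 0.99 ± 0.04. MEP2, an ammonium permease, had 12.22 and 11.58 in Whi3-dRRM-TAP and 11.25 and 10.58 in Whi3-TAP, a difference of 0.98 ± 0.02. In both, every Whi3-dRRM-TAP value was above every Whi3-TAP value. PAU3, one of the seripauperin family, had 11.12 and 11.50 in Whi3-dRRM-TAP and 10.10 and 10.61 in Whi3-TAP, a difference of 0.96 ± 0.09. Its family members are near-identical, so the signal may be shared among them. MBF1, a transcription coactivator, was at 0.85 ± 0.01, with 14.52 and 13.63 in Whi3-dRRM-TAP against 13.66 and 12.79 in Whi3-TAP, so the groups overlapped slightly while the pairs were alike. Without Whi3-dRRM-TAP array 1, MBF1 was at 0.40, with no pairing.

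Uncharacterised reading frames close to chromosome ends were also among the highest, YAL069W at 1.45 ± 0.13, YHR217C at 1.36 ± 0.33 and YDR544C at 1.14 ± 0.18. YAL069W had 11.44 and 11.75 in Whi3-dRRM-TAP and 9.90 and 10.39 in Whi3-TAP. YFL063W, another such frame, was above background on both Whi3-dRRM-TAP arrays and on 0 Whi3-TAP arrays. It was at 2.03 and 5.53 background SDs in Whi3-dRRM-TAP and 1.25 and 1.95 in Whi3-TAP, so both strains had a value close to the cutoff. With each dim value raised to the lowest signal seen above background on its array, it was at least 2.82-fold higher as processed here. Its difference was 1.66 ± 0.32, and from 1.10 to 1.94 in other settings. Among genes with 2 or more usable spots on each array and the same sign in both pairs, YFL063W was the 1 gene above background on both Whi3-dRRM-TAP arrays only. By the same spot and sign rule, 60 of the 4295 genes had the opposite pattern, above background on both Whi3-TAP arrays only.

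For other genes at the upper end the value rested on which spots were usable. ENO1, an enolase of glycolysis, had the highest difference of these genes, 1.78 ± 0.61, from 11.72 and 14.69 in Whi3-dRRM-TAP and 10.37 and 12.47 in Whi3-TAP, but the groups overlapped. From spots usable on all 4 arrays alone it was 0.12, and with marked spots kept it was 0.17. Its near-identical copy ENO2 was saturated on at least one array, so no difference is given for it. PUT1, proline oxidase, was at 1.04 ± 0.89 and turned to -0.12 from common spots and -0.36 with marked spots kept. The wall protein gene TOS6 was at 0.99 ± 0.41, and at 0.27 and -0.09 under those settings. YAR073W, also called IMD1, was at 0.98 ± 0.44 and at 0.07 with marked spots kept.

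At the lower end, CWP1, a mannoprotein of the cell wall, had 12.04 and 12.07 in Whi3-dRRM-TAP and 13.35 and 13.14 in Whi3-TAP. The groups did not overlap, and the difference was -1.19 ± 0.16 (limma, adjusted p = 0.424), a fold of 2.28. RIB4, lumazine synthase of the riboflavin pathway, had 11.98 and 12.15 in Whi3-dRRM-TAP and 13.62 and 13.09 in Whi3-TAP, a difference of -1.29 ± 0.49. URA2, which catalyses the first steps of pyrimidine synthesis, had 11.30 and 12.35 in Whi3-dRRM-TAP and 12.63 and 13.13 in Whi3-TAP, a difference of -1.05 ± 0.39. The 2 groups did not overlap for RIB4 or URA2.

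REE1, named for a role in the regulation of enolase, was at -0.96 ± 0.06, with 12.02 and 11.34 in Whi3-dRRM-TAP and 13.02 and 12.26 in Whi3-TAP. HXT7, a high-affinity hexose transporter, was at -0.91 ± 0.40, with 12.81 and 13.27 in Whi3-dRRM-TAP and 14.01 and 13.90 in Whi3-TAP. HXT7 and HXT6 are near-identical in sequence, and HXT6 was at -0.52. TAH1, a cofactor of the Hsp90 chaperone, was at -0.89 ± 0.13, YHM2, a mitochondrial carrier, at -0.83 ± 0.42, and AZR1, a drug transporter, at -0.77 ± 0.01. One probe that the array names only as MISC_RNA780105 was at -0.87 ± 0.16. For TAH1, AZR1 and MISC_RNA780105 the arrays overlapped across pairs, although the 2 pairs differed alike. Without Whi3-dRRM-TAP array 1, TAH1 was at -0.24, AZR1 at -0.33 and MISC_RNA780105 at -0.20, with no pairing. PHO81, the inhibitor of the phosphate-sensing kinase, was at -0.96 ± 0.38, but its arrays overlapped across pairs, and without Whi3-TAP array 2 it was 0.00 and without Whi3-dRRM-TAP array 1 it was -0.25.

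Other low values rested on the choice of spots. BNA1, an enzyme of NAD synthesis, was at -1.08 ± 0.20 and at -0.01 with marked spots kept, although it was -1.04 from spots usable on all arrays. BCY1, the regulatory subunit of protein kinase A, was at -1.07 ± 1.12, at -0.20 from common spots and at 0.32 with marked spots kept.

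**Figure D3:**
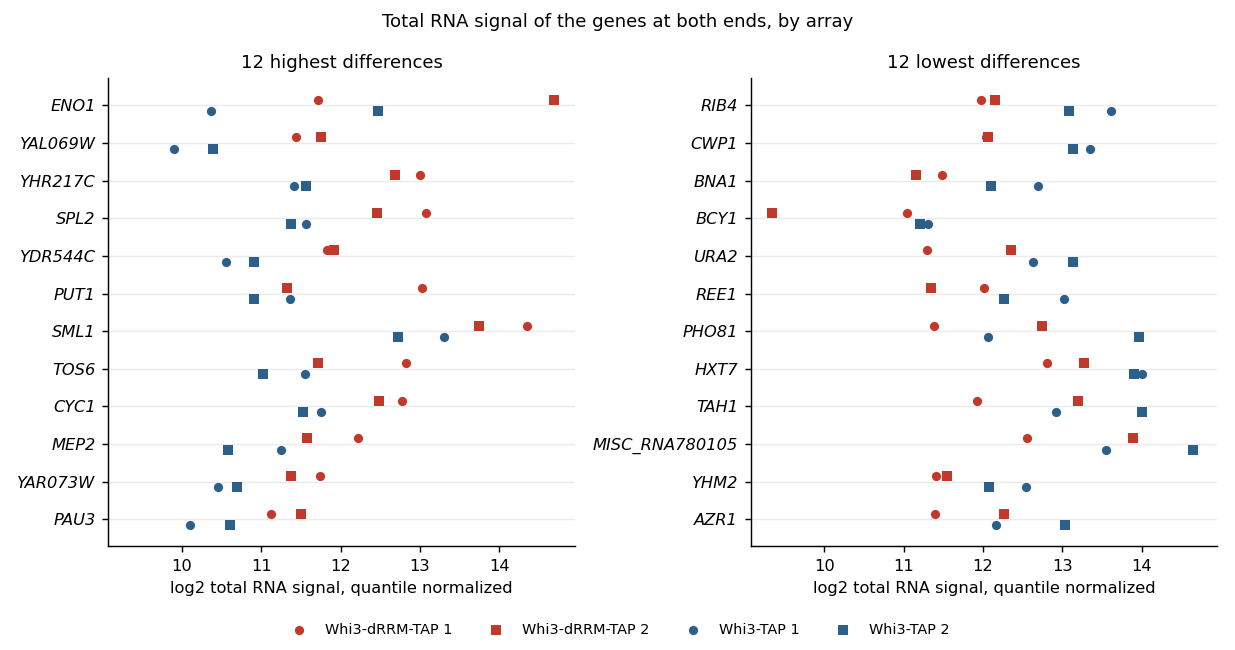
Scaled log2 total RNA signal (horizontal axis) of the 12 genes with the highest (left) and the 12 with the lowest (right) difference among genes above background on all arrays, with Whi3-dRRM-TAP in red above Whi3-TAP in blue and arrays 1 and 2 as circles and squares. For SPL2, SML1, CYC1 and CWP1 the red and blue points do not overlap, while for ENO1 and PHO81 they do.

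Several large lower values came from genes that were above background on both Whi3-TAP arrays but not on at least one Whi3-dRRM-TAP array, and they lay outside the ranking above. They were chosen after their values were seen, because limma called each of them in at least 3 of the 16 other settings tried that kept the gene medians of the arrays level or close to it. YRO2, a membrane protein related to the heat shock protein Hsp30, had 9.45 and 9.97 in Whi3-dRRM-TAP and 11.73 and 12.13 in Whi3-TAP, a difference of -2.22 ± 0.08 (limma, adjusted p = 0.372). This was the smallest adjusted p of all genes. It was above background on one of the Whi3-dRRM-TAP arrays. MDH2, the cytosolic malate dehydrogenase of gluconeogenesis, had 9.51 and 9.62 in Whi3-dRRM-TAP and 11.21 and 11.20 in Whi3-TAP, a difference of -1.64 ± 0.08. It was above background on 0 Whi3-dRRM-TAP arrays and its value on one array came from a single spot. URA1, dihydroorotate dehydrogenase of pyrimidine synthesis, was at -1.52 ± 0.02 and also rested on a single spot on one array.

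PST1, a cell wall protein that responds to wall damage, was at -1.40 ± 0.16, with 9.77 and 10.17 in Whi3-dRRM-TAP and 11.28 and 11.45 in Whi3-TAP. DDR48, a stress-induced protein, was at -1.23 ± 0.19, and at -0.44 with marked spots kept. HXT4, a hexose transporter, was at -1.18 ± 0.05, with 10.54 and 11.03 in Whi3-dRRM-TAP and 11.68 and 12.25 in Whi3-TAP. In each of these genes all Whi3-TAP values were above all Whi3-dRRM-TAP values. Of the 60 genes counted above as seen only in Whi3-TAP, the lowest were bounded in the same way, as processed here. MET10, an enzyme of sulfate reduction, was 1.83-fold lower in Whi3-dRRM-TAP, and raising dim values left this fold unchanged. Without Whi3-dRRM-TAP array 2, MET10 was at -0.34, with no pairing. HIS5, an enzyme of histidine synthesis, was at least 1.59-fold lower, and STP4, a zinc finger protein, at least 1.36-fold. COS10, a gene near a chromosome end whose sign turned with marked spots kept, was at least 1.3-fold lower. UAF30, a subunit of an RNA polymerase I activating factor, was at least 1.25-fold lower. The detection on Whi3-dRRM-TAP array 1 was far below that on the other arrays, and its part in these counts was not tested.

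Gene groups are described next by how many measured members lay on one side in both pairs, beside 30.3% positive and 31.5% negative over all genes, and by the median difference, beside -0.01 for all genes. The lists were drawn up with earlier results of these data known, and no member of any list passed the adjusted test.

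The groups with the lowest medians were those that make ribosomes and amino acids. Of 96 measured genes of ribosome biogenesis, 62 (64.6%) were lower in Whi3-dRRM-TAP in both pairs and 6 (6.25%) higher. The median was -0.20, with -0.28 in pair 1 and -0.15 in pair 2, and 17 lower and 2 higher genes had an unadjusted p under 0.05. In pair 2 alone, which does not use Whi3-dRRM-TAP array 1, 73 of the 96 (76%) were lower, against 50% of all genes. NOP56, a core protein of the snoRNPs that guide methylation of ribosomal RNA, had 11.85 and 11.66 in Whi3-dRRM-TAP and 12.46 and 12.46 in Whi3-TAP, a difference of -0.71 ± 0.13. ECM16, a helicase of small subunit assembly, was at -0.55 ± 0.19. UTP15, of the same assembly complex, went the other way at 0.58 ± 0.21, as did SNU13 at 0.48 ± 0.14.

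Of 55 genes of amino acid synthesis, 35 (63.6%) were lower in both pairs and 8 higher, with a median of -0.24 (pairs, -0.33 and -0.18). At an unadjusted p under 0.05, 16 were lower and 0 higher. ILV2 and ILV5 act in the synthesis of branched amino acids and were at -0.67 ± 0.29 and -0.51 ± 0.05. ILV2 had 12.42 and 12.42 in Whi3-dRRM-TAP and 13.30 and 12.88 in Whi3-TAP. ASN1, asparagine synthetase, was at -0.52 ± 0.27, from 14.15 and 13.93 in Whi3-dRRM-TAP and 14.86 and 14.26 in Whi3-TAP. GDH1, glutamate dehydrogenase, was at -0.58 ± 0.21, but at -0.03 with marked spots kept.

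Genes of the cell wall and its integrity pathway were lower in both pairs for 30 of 54 (55.6%) and higher for 10, with a median of -0.13 (pairs, -0.14 and -0.17). Beside CWP1 and PST1, EXG1, a glucanase, was at -0.70 ± 0.37, CRH1, which links chitin to glucan, at -0.56 ± 0.09, and GAS5, a glucan-remodelling enzyme, at -0.53 ± 0.02. Translation factors were lower in both pairs for 19 of 37 (51.4%) with a median of -0.14, which was -0.02 without Whi3-dRRM-TAP array 1 and -0.05 without Whi3-TAP array 2, and EFB1, a subunit of elongation factor 1, was at 0.50 ± 0.22. Chaperones and heat shock proteins were lower in both pairs for 18 of 32 (56.2%) with a median of -0.10. The chaperone gene SSE1 was at -0.41 ± 0.09, from 14.54 and 13.85 in Whi3-dRRM-TAP and 15.02 and 14.20 in Whi3-TAP. Its groups overlapped, and the difference was -0.01 without Whi3-TAP array 1 and -0.07 without Whi3-dRRM-TAP array 2. HSC82, an Hsp90 gene, was at -0.38 ± 0.11, and at -0.13 without Whi3-dRRM-TAP array 1. Genes of translocation, folding and glycosylation in the endoplasmic reticulum were lower in both pairs for 19 of 44 (43.2%) and higher for 3, with a median of -0.07. HAC1, the transcription factor of the unfolded protein response, was at -0.50 ± 0.06.

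Groups on the other side had small positive medians. All 10 histone genes were higher in Whi3-dRRM-TAP in both pairs, with differences from 0.14 to 0.62 and a median of 0.23 (pairs, 0.23 and 0.26), and 1 reached an unadjusted p under 0.05. HHF1, a gene of histone H4, was at 0.62 ± 0.28 and HTA1, of histone H2A, at 0.34 ± 0.01. HHF1 was at 0.15 with marked spots kept, and the paired copies of histone genes share signal. Without Whi3-dRRM-TAP array 1 or without Whi3-TAP array 2, with no pairing, the histone median was 0.07 and 0.02, against 0.49 and 0.44 without the other arrays.

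Of 32 nuclear genes of the respiratory chain and ATP synthase, 21 (65.6%) were higher in both pairs and 1 lower, with a median of 0.14 (pairs, 0.17 and 0.13) that was 0.06 under median scaling. Beside CYC1, QCR9, a subunit of the cytochrome bc complex, was at 0.54 ± 0.07. Cytosolic ribosomal protein genes were higher in both pairs for 39 of 78 (50%) and lower for 10, with a median of 0.13 (pairs, 0.07 and 0.17), and 76 of the 78 were in the brightest class. RPS21A was at 0.69 ± 0.21. The median of the ribosomal protein genes was -0.17 without Whi3-dRRM-TAP array 2 and -0.08 without Whi3-TAP array 1, with no pairing. Mitochondrial ribosomal protein genes were higher in both pairs for 32 of 69 (46.4%), with a median of 0.09, and MRP2 was at 0.53 ± 0.03. Proteasome genes were higher in both pairs for 20 of 35 (57.1%), with a median of 0.19, which was 0.09 under median scaling, and PUP3, a subunit of its catalytic core, was at 0.52 ± 0.15. Genes of sterol synthesis were higher in both pairs for 15 of 26 (57.7%), with a median of 0.16. HMG1, the reductase that feeds the pathway, was at 0.54, the same in both pairs, and ERG11, lanosterol demethylase, was at 0.34 ± 0.03.

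The list of seripauperins and other genes known from growth without oxygen also holds HYP2, a homolog of its member ANB1. In both pairs 10 of its 11 measured members were higher, with a median of 0.39 (pairs, 0.28 and 0.51). At an unadjusted p under 0.05, 5 were higher and 0 lower. The list has 36 members, and 20 have a probe on the arrays. Of the 11 measured, 5 were above background on all 4 arrays and 3 on none. HYP2 was saturated on at least one array, and it may share signal with ANB1. Genes of amino acid permeases and nitrogen use were higher in both pairs for 15 of 29 (51.7%), with a median of 0.19 (pairs, 0.24 and 0.09) that was 0.06 without Whi3-TAP array 1, and unadjusted p-values under 0.05 were found for 7 higher and 0 lower genes, MEP2 among them.

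Other groups were split. Hexose transporter genes had a median of -0.02, but with HXT7 and HXT4 on one side, HXT3, a low-affinity transporter, was at -0.72 ± 0.13 and HXT2 was at 0.45 ± 0.18. HXT3 had 13.57 and 13.99 in Whi3-dRRM-TAP and 14.20 and 14.81 in Whi3-TAP. Genes of the phosphate response had a median of 0.03, with SPL2 high, PHO81 low and PHO84, the high-affinity phosphate transporter, at -0.37 ± 0.04. In purine synthesis, with a median of -0.03, the IMP dehydrogenase genes IMD2 and IMD4 were at 0.68 ± 0.03 and 0.77 ± 0.25 and ADE6 was at -0.51 ± 0.12. IMD genes are close in sequence, so these values may share signal. The 27 glycolysis genes, ENO1 among them, had a median of -0.03 and ranged from -0.64 to 1.78, with GLK1, glucokinase, at 0.47 ± 0.10 and PFK1, a subunit of phosphofructokinase, at -0.45 ± 0.18. PFK1 was at -0.07 with marked spots kept.

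The cell cycle lists for the start, for G2 and mitosis and for daughter cells had small positive medians. Genes of DNA replication licensing did not, with a median of -0.04 (pairs, 0.04 and -0.09). Of 20 measured licensing genes, 2 were higher and 6 lower in both pairs. Of 37 genes of the start of the cycle, 17 were higher and 10 lower in both pairs, with a median of 0.12 (pairs, 0.17 and 0.04), and it was -0.01 without Whi3-dRRM-TAP array 1, with no pairing. SIC1, the inhibitor that holds back entry into S phase, was at 0.57 ± 0.36, and at 0.13 without Whi3-dRRM-TAP array 1. Of 35 genes of G2 and mitosis, 14 were higher and 7 lower in both pairs, with a median of 0.09 (pairs, 0.17 and 0.08) that was 0.03 without Whi3-TAP array 2, and 4 higher and 0 lower genes had an unadjusted p under 0.05. CLB1, a mitotic cyclin, was named after its value was seen: it was at 0.91 ± 0.46, with 10.86 and 10.39 in Whi3-dRRM-TAP and 9.63 and 9.80 in Whi3-TAP, and it was above background on one array of each strain. Of 27 genes of the step from mitosis to G1 and of daughter cells, 12 were higher and 6 lower in both pairs. Their median was 0.08, and DSE4, a daughter-cell glucanase, was at 0.49 ± 0.05. Genes of mRNA decay had a median of -0.08 over 41 genes (pairs, -0.16 and 0.04), with 10 higher and 14 lower in both pairs. RNA-binding proteins of the Whi3 and Puf kind had a median of -0.06 over 31 genes. Among them NGR1, which is involved in mRNA turnover, was at 0.72 ± 0.08 and BFR1, which associates with polysomes, at -0.60 ± 0.16.

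**Figure D4:**
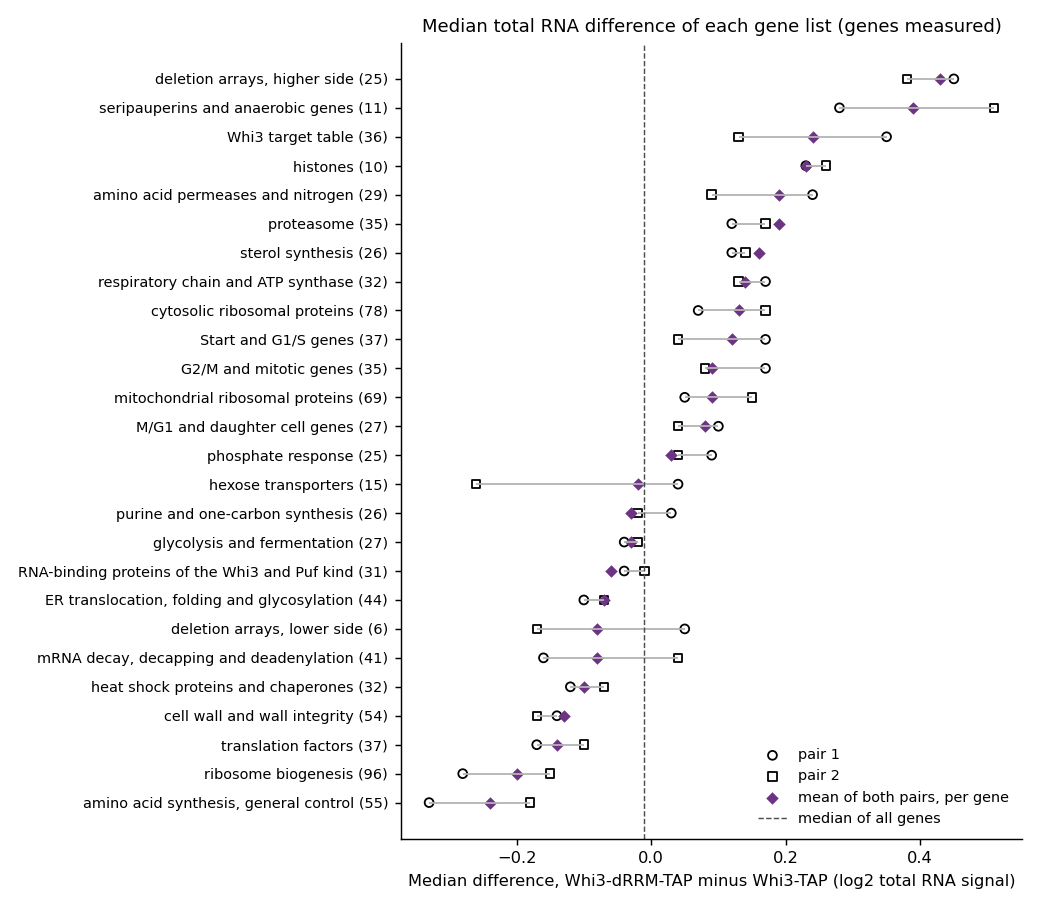
Median total RNA difference of 26 gene lists, Whi3-dRRM-TAP minus Whi3-TAP in log2 units, with the number of measured genes in parentheses. Circles and squares are the medians of pair 1 and pair 2, diamonds the median of each gene's mean over both pairs, and the dashed line the median of all genes (-0.01); amino acid synthesis and ribosome biogenesis lie lowest.

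Lists taken from the study's own tables were followed as well. The first holds mRNAs tabulated as Whi3 targets, from a partial table of the targets that the paper shares with an earlier study. That table took the most enriched of these and others of interest to the authors, so this list does not stand for all targets. It is not independent of these values, because total RNA is the denominator of the ratio that chose it. Of 36 measured genes, 20 (55.6%) were higher in Whi3-dRRM-TAP in both pairs and 6 lower, with a median of 0.24 (pairs, 0.35 and 0.13) that was 0.04 without Whi3-TAP array 1, and unadjusted p-values under 0.05 were found for 8 higher and 0 lower genes. SML1 and MBF1 led it, and CLN3 was at 0.18. The second holds genes on the higher side of separate arrays that set a *WHI3* deletion strain against its wild type. The paper lists its *whi3* deletion strains in BY backgrounds, not W303a. It also screened these genes by values in ethanol or in another study, and in a *WHI3* over-expressor. Of 25 measured genes, 17 (68%) were higher in both pairs and 5 lower, with a median of 0.43 (pairs, 0.45 and 0.38) that was 0.25 without Whi3-TAP array 1, and unadjusted p-values under 0.05 were found for 11 higher and 0 lower genes. ENO1, SPL2, SML1 and MBF1 were among its highest, and ENO1 rested on the choice of spots. PHO84, which rose most of these genes in the paper's deletion strain on glucose, was at -0.37 ± 0.04 here. SML1, MBF1, PHO84 and YGR146C are also on the first list. The paper also gives SPL2, DSE4 and CLB1, among others, a rank among its Whi3 targets. The lists are therefore not independent of each other. Of 6 genes on the lower side of those arrays, 1 was higher and 2 lower in both pairs, with a median of -0.08.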

How the data were processed

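Total RNA from the Whi3-dRRM-TAP and Whi3-TAP strains had been labelled with Cy5 by the authors after oligo-dT primed reverse transcription, hybridised to homemade spotted arrays with 32256 spots and scanned with GenePix. The deposited files give foreground and local background intensity per spot, with no background subtraction, the percent of saturated pixels per spot, and a flag. The deposited table of log ratios was not used.

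Spots with a negative flag were left out. Mean foreground was corrected with the median background by normexp (offset 50), log2 values of the spots of a gene were averaged, and arrays were scaled by quantile normalization over the 4295 genes with a value on all 4 arrays. Differences were tested with limma 3.58.1 (R 4.3.3; version 1.17.8 of data.table and 2.0.0 of jsonlite; 2-sided, Benjamini-Hochberg at 0.05) with the replicate number as a block, because the study's methods combine arrays within an experiment. This left 1 residual degree of freedom beside a prior of 3.23. The pipeline was tested on simulated data. Figures used Python 3.11.15, pandas 2.3.3 and matplotlib 3.10.9.

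RefSeq held the systematic name of 5548 of the 5738 gene probes. A genome build is not stated in the annotation of the arrays, and coordinates are left out. Genes were named from 4 rules: the 12 highest and 12 lowest differences among genes above background on all arrays, with 2 or more spots each and the same sign in both pairs; up to 5 genes on each side above background in one group only; 8 genes by name; and up to 4 leading members of each of 45 lists. Outside these rules, YRO2, MDH2, URA1, PST1, DDR48, HXT4, YJR162C and CLB1 were named after their values were seen, and ENO2 and HXT6 as near-identical copies. The members and lists were chosen with earlier results of these data known. Other settings tried were no block, other background correction, scaling, flag and spot rules, a filter on dim genes, an intensity trend, centred print sectors, and each array left out. With 4 arrays, precision is limited by their number, and each SD is taken over 2 pairs.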

Additional observations from a re-analysis of the deposited data

How the results depend on the processing

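Counts of genes past an adjusted p of 0.05, 0 higher and 0 lower as reported, depended on the processing. They stayed at 0 and 0 with no replicate block, where the smallest adjusted p was 0.816 and 76 higher and 63 lower genes had an unadjusted p under 0.05, and with a normexp offset of 10, cyclic loess, centred print sectors, spots unflagged on all arrays, or genes above background on at least 2 arrays. They were 13 and 14 with no background correction, 10 and 12 with median scaling, 10 and 9 with an intensity trend, 3 and 5 with flagged spots kept, and 0 and 1 with the median of spots. Scaling both channels together (Aquantile) gave 6 and 93, with a median of all genes of -0.30. After the gene medians were made equal, a setting chosen after seeing the data, it gave 0 and 0. Unadjusted calls were 50.2% higher as reported and 3.49% under Aquantile. Leaving out each array, with no pair, gave 0 to 1 higher, the 1 without Whi3-dRRM-TAP array 2, and 0 lower; 1 strain then has a single array that is assumed to vary like the other strain's, so these counts are no check of stability. Same-numbered arrays deviated together across genes (r = 0.55), but 2 pairs cannot show that the numbers mark shared experiments. Across the settings that kept gene medians level, 35 genes were called at least once and 14 in 3 or more settings. The cause of these shifts was not tested.

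Genes above background fell to 701 on Whi3-dRRM-TAP array 1 at 3 background SDs, against 1129 at 2, and genes above background in total RNA on all 4 arrays to 692, against 1114.

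Of 84 genes followed, 75 kept their direction in every setting. Single values near 0 turned: CLN2 to -0.03 under median scaling and -0.02 with centred sectors; MID2 to -0.03 and MTL1 to 0.03 with centred sectors; MTL1 to 0.17 and WHI4 to 0.00 under Aquantile, and MTL1 to 0.15 with equal medians. With flagged spots kept PUT1 was -0.36, TOS6 -0.09, BCY1 0.32, COS10 0.04, WHI4 0.11 and MTL1 0.05, and PUT1 was -0.12 from common spots. With each array left out, CLN2 ranged from -0.24 to 0.38, CLN3 from -0.03 to 0.39, MID2 from -0.32 to 0.43 and MTL1 from -0.23 to 0.10. With each array left out, list medians ranged from -0.17 to 0.41 for cytosolic and -0.01 to 0.15 for mitochondrial ribosomal proteins, -0.26 to 0.20 for glycolysis, -0.01 to 0.23 for the start of the cycle, -0.18 to 0.02 for the endoplasmic reticulum and -0.01 to 0.00 for RNA-binding proteins, whose median was -0.06 as reported and -0.12 under median scaling. Leaving out an array brought 41 of the 84 genes and 19 of 27 lists nearer to 0 by over 1.5 times, or across it. These fits had no pairing, so the shifts also hold the gap between replicates 1 and 2. They do not show dependence on an array alone. AZR1 was at -0.78 and -0.77 in the pairs and at -0.33 without Whi3-dRRM-TAP array 1. The medians of ribosome biogenesis, amino acid synthesis and seripauperins kept their sign in every setting. So did those of other lists, among them the cell wall (-0.17 to -0.05), the respiratory chain (0.06 to 0.23) and the proteasome (0.09 to 0.29).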

Other observations

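Genes close to chromosome ends were looked at after the values of YAL069W, YHR217C, YDR544C and YFL063W had been seen, so the counts are a description. Of 97 measured genes within 5 gene probes of an end of a chromosome, 43 (44.3%) were higher in Whi3-dRRM-TAP in both pairs and 14 lower, against 1251 (30.1%) and 1322 of the 4154 other genes with a position. At an unadjusted p under 0.05, 21 were higher and 0 lower. Their median difference was 0.15, with 0.13 in pair 1 and 0.18 in pair 2, and that of the other genes was -0.01. In pair 2 alone 65 of the 97 (67%) were higher, against 49.7% of all genes. Of the 97 genes, 36 were in the dimmest signal class, and many of them have near-identical copies at other chromosome ends, so their signals are not independent. YJR162C, the reading frame nearest its end, had 10.19 and 10.76 in Whi3-dRRM-TAP and 8.28 and 9.26 in Whi3-TAP, a difference of 1.71 ± 0.29, with a single usable spot on one array. By whole chromosome the medians lay between -0.03 and 0.02.

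The 37 probes without a reading frame name had a median of 0.11 in pair 1 and -0.39 in pair 2.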
